A study of Arabidopsis thaliana with 24 samples.

Results

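The loss of the trihelix transcription factor GTL1 was examined in expanding leaves of Arabidopsis thaliana under water deficit, by comparing 3 libraries of the knockout line gtl1-4 with 3 libraries of its wild type Col-0, the reference accession. These 6 libraries, of 24 in the series, were taken as members by genotype, treatment and leaf stage alone, so that no measured value chose them. Each library was made from leaves of 10 pooled plants, sampled 14 to 15 days after emergence and described as 50% expanded. The water-deficit plants were held at 30% of the water content of the medium, and plants of both genotypes grew in an 8 h photoperiod. The comparison was set beside the same genotype contrast in well-watered expanding leaves, at 65 to 100% water content, and in water-deficit emerging leaves 1 day after emergence. All mutant plants were of 1 allele, so what belongs to GTL1 and what belongs to the line cannot be told apart here.

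GTL1 (GT-2-LIKE 1) belongs to the plant trihelix family, whose DNA-binding domains recognise GT elements in promoters. It is known as a repressor of SDD1, a subtilisin-like protease that limits stomatal density, and of CCS52A1, an activator of the anaphase-promoting complex that drives the endocycle in trichomes. Mutants of GTL1 are known for fewer stomata, lower transpiration and larger trichome cells. Leaves that are still growing when water is short close stomata under abscisic acid, lower wall loosening and water transport, and collect protective proteins and anthocyanins.

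The 6 libraries held 16.1 to 23.7 M recovered counts, of which 4.74 to 7.81 M were from nuclear genes. Chloroplast transcripts made up 71.9 ± 6.04% (SD, n = 3) of the counts in Col-0 and 65.8 ± 3.41% in gtl1-4. Col-0 replicate 2 stood apart from the other 5 libraries, with a chloroplast share of 78.6% and Spearman correlations across genes of 0.945 to 0.957 with them, against 0.968 to 0.983 among the others. It was the lowest of the 6 libraries for 29.5% of all tested genes and the highest for 28.5%. The list medians below are given with and without it, as are the values of several single genes. Marker genes matched the labelled tissue: the 6 light-harvesting and Rubisco markers of leaf summed to 277108 to 294036 normalized counts in Col-0 and 286949 to 324359 in gtl1-4. The 4 shoot meristem and 2 seed storage markers were at 0 in every library, and the 4 flower markers summed to at most 2.3, with 2 of them at 0. Markers of dividing cells summed to 19.7 to 51.9 in Col-0 and 49.4 to 60.6 in gtl1-4, and those of guard cells to 146 to 177 and 171 to 203. Col-0 replicate 2 was the lowest library for the 2 dividing-cell markers that were tested. Their median log2 fold change was 0.85, and 0.26 without that library. In bulk leaf samples, fewer cells of a type and less RNA per cell cannot be told apart.

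GTL1 itself (AT1G33240, chromosome 1, 12051361 to 12054753 on the minus strand in TAIR10.1, with 3 annotated transcripts of 2 to 3 exons) was lower in the mutant. Its normalized counts were 421, 571 and 518 in the Col-0 libraries and 123, 128 and 157 in the gtl1-4 libraries. The groups did not overlap, and the fitted difference put the mutant level at 27.2% of that of Col-0. The fitted log2 fold change was -1.88 ± 0.16 (SE; limma with Benjamini-Hochberg adjustment, adjusted p = 1.69e-05), and an exact two-sided permutation test of the 6 values gave p = 0.1, the smallest that 3 against 3 libraries allow. Which stretch of the transcript the remaining counts came from was not recorded in the files, so the knockout was checked at the level of the whole gene only. The promoter of GTL1, from 250 bases before the annotated start to 50 after it, is shown because it holds the box bound by the protein it encodes. Here and in the promoters printed further on, taken from the RefSeq annotation of TAIR10.1 (chr1:12054704-12055003, minus strand), capitals mark the GT3 box GGTAAA or its reverse complement TTTACC.
GTL1: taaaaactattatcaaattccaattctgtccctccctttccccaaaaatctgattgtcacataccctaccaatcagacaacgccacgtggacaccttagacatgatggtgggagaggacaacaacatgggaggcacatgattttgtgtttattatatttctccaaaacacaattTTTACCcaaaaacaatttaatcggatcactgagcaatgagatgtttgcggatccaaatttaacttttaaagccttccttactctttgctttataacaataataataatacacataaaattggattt
In this window the box began 76 bases before the start, on the strand opposite to the gene. Promoters with GGTAAA on either strand made up 18.0% of those of tested genes, 2943 of 16380. The box was present in 8 of the 28 genes called below, 6 of the 21 that rose and 2 of the 7 that fell, a count that says nothing about binding.

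Of 16522 genes with a mean of at least 10 normalized counts over the 12 expanding-leaf libraries, 28 (0.169%) differed between the genotypes under water deficit at an adjusted p under 0.05. The mutant was higher for 21 genes (0.127%) and lower for 7 (0.0424%). Of these, 18 rises and all 7 falls were at least 2-fold, and the median log2 fold change of all tested genes was 0.00. In all 28 the 3 mutant libraries lay entirely above or below the 3 Col-0 libraries, as they did for 14.1% of all tested genes. Without the adjustment 1099 genes (6.65%) had p under 0.05, 601 higher (3.64%) and 498 lower (3.01%). The called genes stood on all 5 chromosomes, with 9, 4, 6, 5 and 4 on chromosomes 1 to 5. The count depended on single libraries: it was 15, 17 and 17 without gtl1-4 replicates 1, 2 and 3, and 54 without Col-0 replicate 3, and it was 112 with a weight per library. Without Col-0 replicate 2 it was 21, of which 20 were among the 28.

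**Figure D1:**
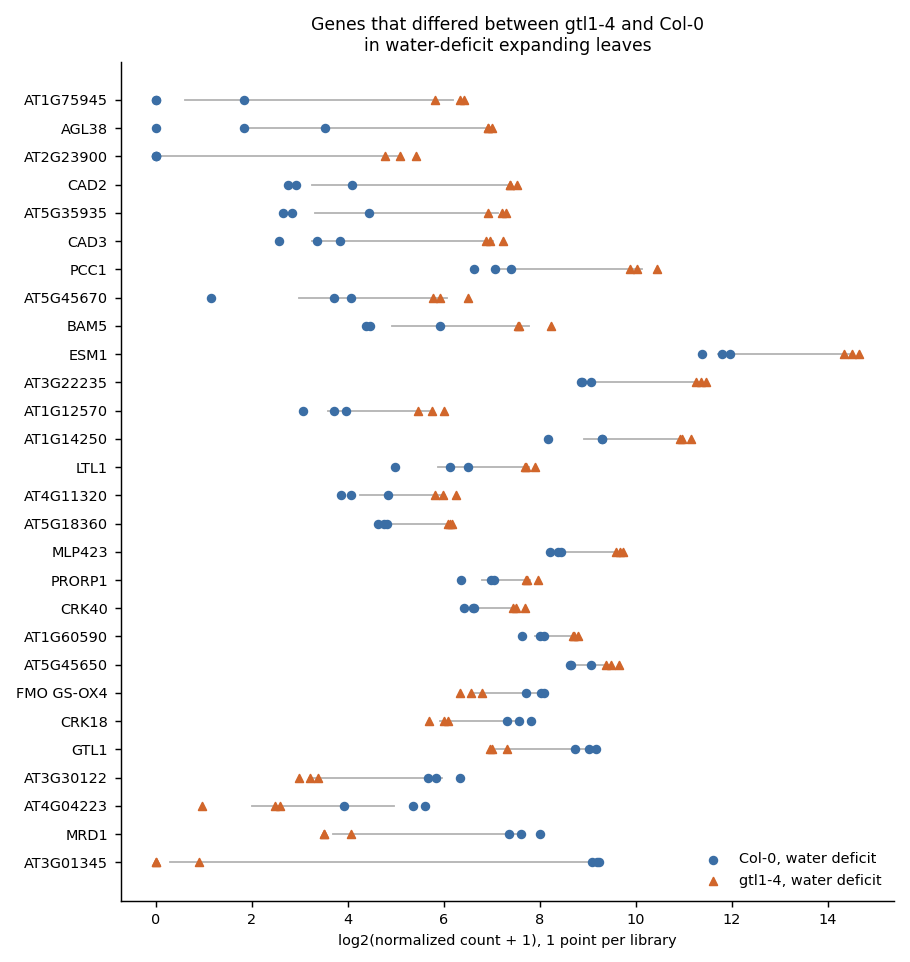
Each row is 1 of the 28 called genes, ordered by fitted fold change; circles are the 3 Col-0 and triangles the 3 gtl1-4 libraries under water deficit on a log2(normalized count + 1) axis, and the grey line joins the group means. The groups do not overlap in any row, and 21 genes lie to the right of Col-0 in the mutant and 7 to the left.

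Genes of glucosinolate chemistry and of defence were among both the rises and the falls. ESM1 (AT3G14210, chromosome 3, 4729399 to 4731847 on the plus strand), EPITHIOSPECIFIER MODIFIER 1, a lipase-like protein that shifts glucosinolate breakdown toward isothiocyanates, was at 3529, 2648 and 3971 normalized counts in Col-0 and at 25656, 23063 and 20669 in gtl1-4. Every mutant library was far above every Col-0 library, and the log2 fold change was 2.79 ± 0.16 (adjusted p = 1.11e-07). FMO GS-OX4 (AT1G62570), a flavin monooxygenase that oxidises the sulfur of methylthioalkyl glucosinolates, went the other way. It was at 272, 208 and 260 in Col-0 and at 93.8, 110 and 79.2 in gtl1-4, a log2 fold change of -1.38 ± 0.22 (adjusted p = 0.0108). The groups did not overlap, and the call was lost without gtl1-4 replicate 1 or 3 or Col-0 replicate 1 (adjusted p up to 0.0974). The remaining glucosinolate genes are described with the gene lists.

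A pair of neighbouring stress genes on chromosome 3 rose together. PCC1 (AT3G22231, PATHOGEN AND CIRCADIAN CONTROLLED 1), a small membrane protein whose transcript follows the clock and pathogen attack, was at 167, 97.9 and 132 in Col-0 and at 941, 1041 and 1394 in gtl1-4, a log2 fold change of 3.09 ± 0.40 (adjusted p = 0.00132). AT3G22235, annotated as a cysteine-rich transmembrane module stress tolerance protein, was at 465, 465 and 536 in Col-0 and at 2442, 2823 and 2603 in gtl1-4, a log2 fold change of 2.42 ± 0.38 (adjusted p = 0.00821). Every mutant library was well above every Col-0 library for both genes. They lie 7.59 kb apart on the same strand, with 3 annotated genes between them of which none was tested. Their promoters (chr3:7846784-7847083, minus strand, and chr3:7855765-7856064, minus strand) are shown because they share a run of 155 identical bases. Neither holds GGTAAA, so no letter is in capitals.
PCC1: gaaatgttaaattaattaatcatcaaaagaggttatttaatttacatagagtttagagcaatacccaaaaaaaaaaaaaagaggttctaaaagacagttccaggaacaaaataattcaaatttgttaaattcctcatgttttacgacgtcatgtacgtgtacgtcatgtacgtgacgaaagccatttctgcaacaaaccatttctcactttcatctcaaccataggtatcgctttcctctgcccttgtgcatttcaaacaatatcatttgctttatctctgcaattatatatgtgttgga
AT3G22235: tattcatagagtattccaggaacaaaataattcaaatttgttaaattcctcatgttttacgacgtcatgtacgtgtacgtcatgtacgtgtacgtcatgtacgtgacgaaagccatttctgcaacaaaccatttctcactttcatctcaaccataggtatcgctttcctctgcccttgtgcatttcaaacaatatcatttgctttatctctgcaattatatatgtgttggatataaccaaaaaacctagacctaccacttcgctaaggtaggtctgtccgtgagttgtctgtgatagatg
The shared run starts 105 bases before the start of PCC1 and 174 bases before that of AT3G22235. It reaches the end of the PCC1 window, 50 bases after the start, so its length is a lower limit. Their annotated transcripts share a run of 247 bases, and 30.8% of the 50-base windows in the longest transcript of PCC1 also occur in AT3G22235. Reads from such stretches cannot be assigned to 1 gene by sequence, and how they were divided was not recorded in the files, so the values of the 2 genes are reported as uncertain. AT3G22235 lost its call without gtl1-4 replicate 2 or 3 (adjusted p up to 0.0606), while PCC1 kept it in all 6 leave-one-out fits.

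Receptor-like kinases and a disease resistance gene moved in both directions, by smaller amounts than PCC1 and AT3G22235. CRK18 (AT4G23260), a cysteine-rich receptor-like kinase, was at 187, 224 and 158 in Col-0 and at 67.2, 50.6 and 63.1 in gtl1-4, a log2 fold change of -1.63 ± 0.29 (adjusted p = 0.0256). CRK40 (AT4G04570), of the same family, was at 84.5, 95.9 and 97.8 in Col-0 and at 204, 173 and 180 in gtl1-4, a log2 fold change of 0.99 ± 0.14 (adjusted p = 0.00389). AT5G18360, annotated as a disease resistance protein of the TIR-NBS-LRR class, was at 23.8, 27.1 and 26.0 against 67.2, 71.2 and 68.9, a log2 fold change of 1.4 ± 0.25 (adjusted p = 0.0256). The groups were apart for all 3 genes. The call of AT5G18360 was lost in each of the 6 leave-one-out fits and that of CRK18 in all but the one without Col-0 replicate 3 (adjusted p up to 0.188 for both). That of CRK40 was lost without gtl1-4 replicate 1 (adjusted p = 0.0535).

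Among genes of the cell wall, CAD2 (AT2G21730) and CAD3 (AT2G21890), homologs of the cinnamyl alcohol dehydrogenases that make lignin precursors, were low in Col-0 and higher in the mutant. CAD2 was at 6.60, 16.0 and 5.72 normalized counts in Col-0 and at 182, 165 and 166 in gtl1-4, a log2 fold change of 4.17 ± 0.35 (adjusted p = 1.12e-05). CAD3 was at 9.24, 4.92 and 13.3 in Col-0 and at 149, 116 and 124 in gtl1-4, a log2 fold change of 3.76 ± 0.38 (adjusted p = 0.000111). Both rose in all 3 mutant libraries, and both kept their call in every fit tried. They lie 48.9 kb apart on chromosome 2, and none of the 7 tested genes of the 15 between them was called, with log2 fold changes of -0.12 to 0.67. Their promoters (chr2:9279681-9279980, plus strand, and chr2:9330808-9331107, plus strand) are shown because 2 runs of at least 20 bases, 220 bases in all, are identical between them and the GT3 box lies within the longer one.
CAD2: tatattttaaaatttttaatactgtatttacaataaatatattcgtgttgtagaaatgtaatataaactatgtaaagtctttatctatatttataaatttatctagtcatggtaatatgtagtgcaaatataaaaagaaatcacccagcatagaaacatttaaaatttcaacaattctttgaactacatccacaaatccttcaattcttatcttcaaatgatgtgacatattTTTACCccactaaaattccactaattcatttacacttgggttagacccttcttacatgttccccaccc
CAD3: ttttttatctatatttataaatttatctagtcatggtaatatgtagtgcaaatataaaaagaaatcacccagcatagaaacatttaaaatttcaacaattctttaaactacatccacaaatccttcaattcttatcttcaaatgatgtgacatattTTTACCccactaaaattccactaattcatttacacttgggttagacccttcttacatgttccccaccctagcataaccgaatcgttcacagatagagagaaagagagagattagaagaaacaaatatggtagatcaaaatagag
The longest shared run has 119 bases and starts 69 bases before the annotated start of CAD2 and 145 bases before that of CAD3. It reaches the end of the CAD2 window, 50 bases after the start, so its length is a lower limit. The box begins 18 and 94 bases before the starts. The transcripts share a run of 363 bases, and 56.1% of the 50-base windows of CAD3 occur in CAD2, so the split of the rise between CAD2 and CAD3 is reported as uncertain.

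A pair of pectin lyase-like genes also rose. AT1G60590 was at 269, 197 and 254 in Col-0 and at 412, 439 and 417 in gtl1-4, a log2 fold change of 0.83 ± 0.15 (adjusted p = 0.0256). AT2G23900 was listed at 0 in all 3 Col-0 libraries and at 33.2, 42.0 and 26.4 in gtl1-4 (adjusted p = 0.00167), and no fold is given for it. The mutant libraries of both genes lay above all Col-0 libraries. AT1G60590 lost its call without any 1 of the gtl1-4 libraries and without Col-0 replicate 2 (adjusted p up to 0.188), and AT2G23900 without gtl1-4 replicate 1 or 2 (adjusted p up to 0.0606).

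Enzymes of starch, lipid and protein turnover accounted for a further set of rises. BAM5 (AT4G15210), a beta-amylase located outside the chloroplast, was at 19.8, 20.9 and 59.7 in Col-0 and at 187, 299 and 187 in gtl1-4, a log2 fold change of 2.86 ± 0.33 (adjusted p = 0.000347). LTL1 (AT3G04290), a GDSL-type lipase known for lithium tolerance when expressed in yeast, was at 89.7, 30.7 and 69.3 against 239, 209 and 204, a log2 fold change of 1.89 ± 0.29 (adjusted p = 0.0075). AT5G45670, another GDSL-like lipase, was at 15.8, 1.23 and 12.1 against 59.7, 89.3 and 53.9, with a log2 fold change of 3.09 ± 0.57 (adjusted p = 0.0364). In each of these genes every mutant library exceeded every Col-0 library. For LTL1 and AT5G45670 the Col-0 low point was replicate 2, and without it their log2 fold changes were 1.45 and 2.17 with adjusted p of 0.00505 and 0.0249. AT4G11320, a papain-type cysteine protease, was at 15.8, 13.5 and 27.7 against 62.2, 75.5 and 55.1, a log2 fold change of 1.76 ± 0.31 (adjusted p = 0.0256). AT5G45650, a subtilase 9.30 kb from AT5G45670, was at 398, 394 and 534 against 795, 717 and 659, a log2 fold change of 0.72 ± 0.13 (adjusted p = 0.033). LTL1 was not called without gtl1-4 replicate 1 (adjusted p = 0.067), AT5G45670 not without any 1 of the gtl1-4 libraries (up to 0.238), and the 2 proteases in any leave-one-out fit but the one without Col-0 replicate 3 (up to 0.249). The gene between AT5G45650 and AT5G45670 had a log2 fold change of -0.65 and was not called.

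The other rises had varied annotations. MLP423 (AT1G24020), a major latex protein-like gene, was at 344, 294 and 333 in Col-0 and at 808, 843 and 762 in gtl1-4, a log2 fold change of 1.31 ± 0.14 (adjusted p = 0.000208). AT1G14250, a nucleoside phosphatase of the GDA1/CD39 family, was at 622, 288 and 628 against 1985, 2254 and 1944, a log2 fold change of 2.09 ± 0.23 (adjusted p = 0.000296). PRORP1 (AT2G32230), the protein-only RNase P of organelles that trims tRNA precursors, was at 125, 81.2 and 132 against 211, 208 and 249, a log2 fold change of 1.0 ± 0.18 (adjusted p = 0.0256). The groups were apart in all 3 cases, with Col-0 replicate 2 as the lowest library. Without it AT1G14250 was at 1.72, and PRORP1 was at 0.78 and was not called (adjusted p = 0.0643). AT1G12570, a glucose-methanol-choline oxidoreductase, was at 14.5, 7.38 and 12.1 against 63.1, 42.9 and 52.8, a log2 fold change of 2.16 ± 0.35 (adjusted p = 0.0119), which without Col-0 replicate 2 was 1.90 and not called (adjusted p = 0.0598). PRORP1 and AT1G12570 also lost their calls without any 1 of the gtl1-4 libraries (adjusted p up to 0.191 and 0.132). AGL38 (AT1G65300), a MADS-box transcription factor gene of 1 exon, was at 10.6, 0 and 2.60 against 127, 120 and 120, a log2 fold change of 5.15 ± 0.69 (adjusted p = 0.00167). AGL38 kept its call in every fit in which it was tested, with adjusted p up to 0.0347.

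A last set consisted of genes with little or no annotated function, some of them at or near 0 in 1 genotype. AT3G01345, an uncharacterized protein gene (chromosome 3, 129138 to 130749 on the plus strand), was at 595, 584 and 540 normalized counts in Col-0 and at 0, 0.858 and 0 in gtl1-4. The mutant libraries held 1 recovered count of this gene against 1550 in Col-0, both estimated from the normalized values, a ratio of 1843 in favour of Col-0 with an exact 95% interval of 330 to 72854 for counting error only (adjusted p = 0.000296). AT1G75945, also uncharacterized, went the opposite way, from 0, 0 and 2.60 in Col-0 to 55.6, 85.0 and 79.2 in gtl1-4. That is 3 recovered counts against 235, a ratio of 65.9 with an interval of 22.3 to 322 (adjusted p = 0.000321). AT5G35935 rose from 5.28, 6.15 and 20.8 to 146, 120 and 155, a log2 fold change of 3.82 ± 0.50 (adjusted p = 0.00132). MRD1 (AT1G53480), named for its low transcript in a mutant that overaccumulates methionine, was at 193, 255 and 163 in Col-0 and at 15.8, 10.3 and 10.3 in gtl1-4, a log2 fold change of -3.96 ± 0.27 (adjusted p = 7.87e-07). AT3G30122, which has no product in the annotation, fell from 50.2, 80.0 and 56.3 to 8.30, 9.44 and 6.89, a log2 fold change of -2.76 ± 0.36 (adjusted p = 0.00132). AT4G04223, annotated as an RNA gene without a protein, was at 47.8, 39.9 and 14.2 against 4.98, 0.944 and 4.59 (adjusted p = 0.042), and kept its call in the leave-one-out fit without Col-0 replicate 3 alone (adjusted p up to 0.216 in the others). No overlap between genotypes occurred in any of these genes.

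None of the 212 tested genes within 1 Mb of GTL1 other than GTL1 itself was called, and 10 had an unadjusted p under 0.05. Among all tested genes 0.169% were called and 6.65% had an unadjusted p under 0.05. At so low a share of calls, 0 of 212 does not set the region apart. Of the 7 tested genes within 25 kb, AT1G33170 had the lowest p, with a log2 fold change of 0.73 and an adjusted p of 0.102. Its well-watered log2 fold change was 0.91 (adjusted p = 0.00981), and the other 6 neighbours lay between -0.07 and 0.23 under deficit.

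The same genotype contrast in well-watered expanding leaves called 222 genes (1.34% of those tested). All 28 genes called under deficit had the same sign there, and 20 were also called, which is 71.4% of the 28 and 9.01% of the 222. The 8 that were not called there were PCC1, AT3G22235, FMO GS-OX4, CRK40, AT4G11320, PRORP1, AT5G45650 and AT4G04223. None of these 8 was shown to depend on water supply, since the interaction of genotype and water called 0 genes of 16522 in limma, with 948 (5.74%) at an unadjusted p under 0.05 and a smallest adjusted p of 0.181. limma-voom also called 0. For PCC1 the well-watered values were 302, 225 and 146 in Col-0 and 216, 1033 and 511 in gtl1-4, and for AT3G22235 they were 783, 957 and 615 against 528, 2747 and 918. In both genes the same mutant library was high and another lay within the Col-0 range. The deficit log2 fold changes of 3.09 and 2.42 stood beside well-watered ones of 1.17 and 0.51 (interaction adjusted p = 0.845 and 0.785). FMO GS-OX4 was at 49.2, 66.7 and 66.2 in watered Col-0 and at 39.5, 64.9 and 42.8 in watered gtl1-4, where the groups overlapped, and its log2 fold change was -0.32 (interaction adjusted p = 0.845).

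**Figure D2:**
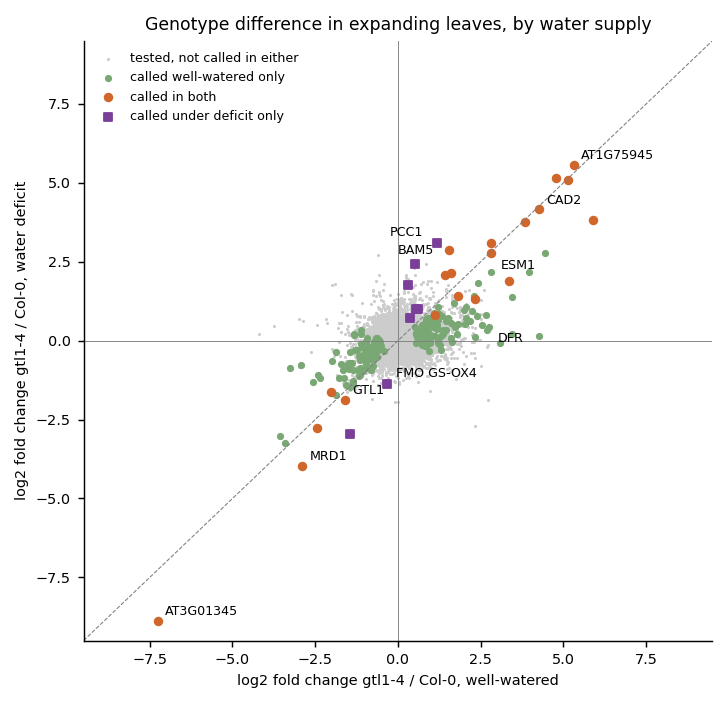
Each point is a tested gene, with its log2 fold change of gtl1-4 over Col-0 in well-watered leaves on the horizontal axis and under water deficit on the vertical axis; colours give the 20 genes called in both, the 8 called under deficit and the others called in watered leaves, and the dashed line marks equal values. All 28 genes called under deficit lie in the quadrants of equal sign, and most genes called in watered leaves lie closer to 0 on the deficit axis.

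Seen from the well-watered side, 203 of its 222 called genes (91.4%) had the same sign under deficit, and 116 (52.3%) also had an unadjusted p under 0.05 there in the same direction. Their median log2 fold change in the well-watered direction was 1.09 in watered leaves and 0.43 under deficit, and 209 of the 222 were smaller under deficit. These genes were chosen on their well-watered values, so their smaller deficit values describe the pair of contrasts and carry no test. DFR (AT5G42800), which reduces dihydroflavonols on the way to anthocyanins, was called in watered leaves and not under deficit. Its log2 fold change was 2.74 in watered leaves (adjusted p = 0.000569) and 0.43 under deficit, with an interaction of -2.31 (unadjusted p = 0.000164, adjusted p = 0.679). MLP423 stood at 2.33 in watered leaves and 1.31 under deficit, with an interaction of -1.01 (unadjusted p = 0.000108, adjusted p = 0.596). ESM1 and CAD2 had nearly the same values at both water levels, 2.82 and 2.79 for ESM1 and 4.27 and 4.17 for CAD2.

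**Figure D3:**
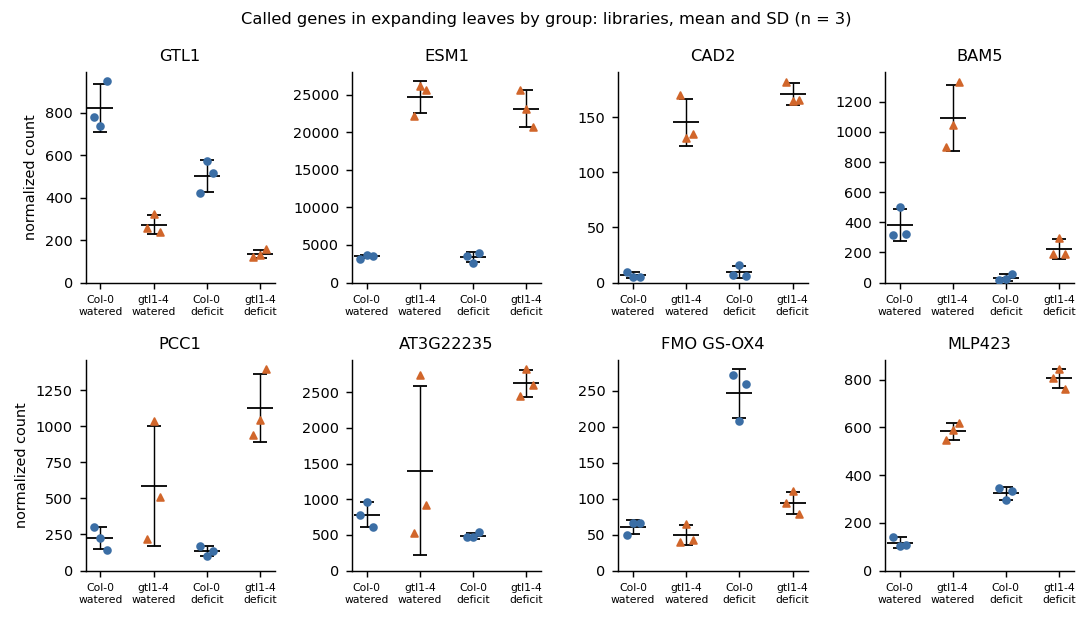
Normalized counts of 8 called genes in the 4 groups of expanding leaves, with circles for Col-0 and triangles for gtl1-4 libraries and bars for the mean and SD of 3. ESM1, CAD2, BAM5 and MLP423 are apart between genotypes at both water levels, PCC1 and AT3G22235 are spread out in watered gtl1-4, and FMO GS-OX4 is high in water-deficit Col-0 alone.

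In water-deficit emerging leaves, a separately scaled set of libraries, 34 of 18529 tested genes were called (0.183%). Of the 28 genes, 24 were tested at that age, 22 had the same sign, and 8 were called in the same direction. The 8 were GTL1, MRD1, AT1G75945, AT2G23900, AT3G01345, ESM1, AT3G30122 and AT5G35935, and all of them were also called in well-watered expanding leaves. They were 28.6% of the 28 and 23.5% of the 34. For ESM1 the emerging log2 fold change was 1.62, for MRD1 -4.19 and for AT5G35935 4.73. CRK40 had the opposite sign there, at -1.32, and was not called (adjusted p = 0.336). MLP423 was at 10308, 13636 and 10380 in emerging Col-0 and 13191, 12215 and 11768 in emerging gtl1-4, with overlapping groups and a log2 fold change of 0.13. PCC1 was listed at 0 in all 6 emerging libraries.

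Pathways linked to GTL1 and to drought were followed as gene lists. The 32 gene lists held 387 genes, of which 323 passed the filter and 2 were called, beside 28 of all 16522 genes tested (0.169%). The 2 were BAM5 among the starch genes and GTL1, the mutated gene itself, among the trihelix factors. Calls were too rare among all genes for this count to set the lists apart. With array weights, which called 112 of all genes, 8 list members rose and 2 fell. Without Col-0 replicate 3, with 54 of all genes called, 8 rose and 1 fell. Each list median below is given with its value without Col-0 replicate 2, because that library was the lowest of the 6 for most members of several lists.

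**Figure D4:**
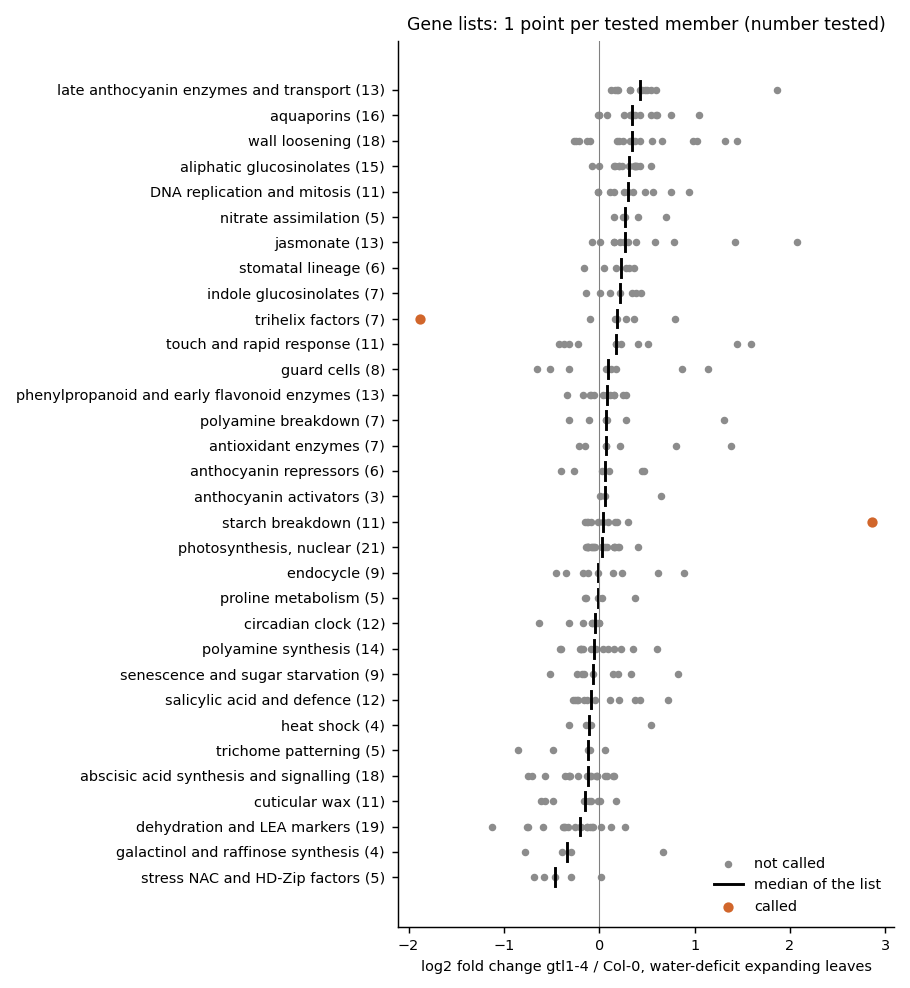
Each point is a tested member of a gene list, placed by its log2 fold change of gtl1-4 over Col-0 under water deficit, with black bars for list medians and orange for the 2 called members. Medians run from -0.47 to 0.43, and the 2 called points are GTL1 at -1.88 and BAM5 at 2.86.

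Late anthocyanin enzymes and transport genes had 13 tested members, all with a positive log2 fold change, a median of 0.43 and 0 called (1 with an unadjusted p under 0.05, against 3.64% of all genes in that direction). The well-watered median was 1.27, with 4 members called. Col-0 replicate 2 was the lowest of the 6 libraries for all 13, and without it the median was 0.12 with 10 members positive. DFR was at 1983, 838 and 1377 in Col-0 and at 1779, 2261 and 1391 in gtl1-4, and LDOX (AT4G22880), which makes the anthocyanidin, was at 1085, 392 and 786 against 977, 1295 and 816. In both genes 2 of the 3 mutant libraries lay within the range of Col-0 replicates 1 and 3. The 95% interval of the DFR difference was -0.28 to 1.14 and that of LDOX -0.24 to 1.32. The log2 fold changes of DFR and LDOX were 0.43 and 0.54, and 0.10 and 0.13 without Col-0 replicate 2. The bHLH activator TT8 (AT4G09820) had a log2 fold change of 0.64 (adjusted p = 0.909), and 0.16 without Col-0 replicate 2. The MYB activator MYB75 (AT1G56650) was at 365, 301 and 345 against 354, 362 and 299, a log2 fold change of 0.00 with an interval of -0.49 to 0.50, whose sign changed between fits. The 13 earlier phenylpropanoid and flavonoid enzymes had a median of 0.08, and -0.12 without Col-0 replicate 2, with 0 called.

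Polyamine synthesis genes, 14 tested, had a median of -0.06, and -0.05 without Col-0 replicate 2, with 6 members positive and 0 called. ADC1 (AT2G16500) and ADC2 (AT4G34710), the arginine decarboxylases that start putrescine synthesis, were at 186, 193 and 150 against 222, 191 and 265, and at 639, 394 and 500 against 560, 720 and 503. The groups overlapped for both, and their log2 fold changes were 0.35 (interval 0.02 to 0.69, adjusted p = 0.734) and 0.23 (interval -0.18 to 0.64, adjusted p = 0.902). In watered leaves both were called, at 0.67 and 0.89 (adjusted p = 0.0499 and 0.0327). The interaction was -0.32 for ADC1 and -0.66 for ADC2 (adjusted p = 0.87 and 0.845). The promoter of ADC2 (chr4:16562995-16563294, minus strand) is shown because it holds the GT3 box in 2 places on the strand of the gene, 214 and 105 bases before the start, beside a genotype difference that did not pass under deficit.
ADC2: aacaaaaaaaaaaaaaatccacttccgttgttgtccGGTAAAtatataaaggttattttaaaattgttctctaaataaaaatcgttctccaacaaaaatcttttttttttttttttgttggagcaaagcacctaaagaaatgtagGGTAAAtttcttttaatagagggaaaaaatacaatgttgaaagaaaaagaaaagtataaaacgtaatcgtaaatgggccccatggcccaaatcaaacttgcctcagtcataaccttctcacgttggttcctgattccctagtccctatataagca
The spermidine synthases SPDS1 (AT1G23820) and SPDS2 (AT1G70310) had log2 fold changes of 0.04 (interval -0.22 to 0.30) and -0.21 (interval -0.46 to 0.04), and SAMDC1 (AT3G02470), which supplies the aminopropyl donor, 0.15 (interval -0.12 to 0.43). ARGAH2 (AT4G08870), an arginase that competes for the same arginine, was at 384, 278 and 466 against 564, 603 and 520, a log2 fold change of 0.61 with an adjusted p of 0.439. Its lowest library was Col-0 replicate 2, which widened the difference. Polyamine breakdown genes, 7 tested, had a median of 0.07, and 0.01 without Col-0 replicate 2, with 0 called.

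**Figure D5:**
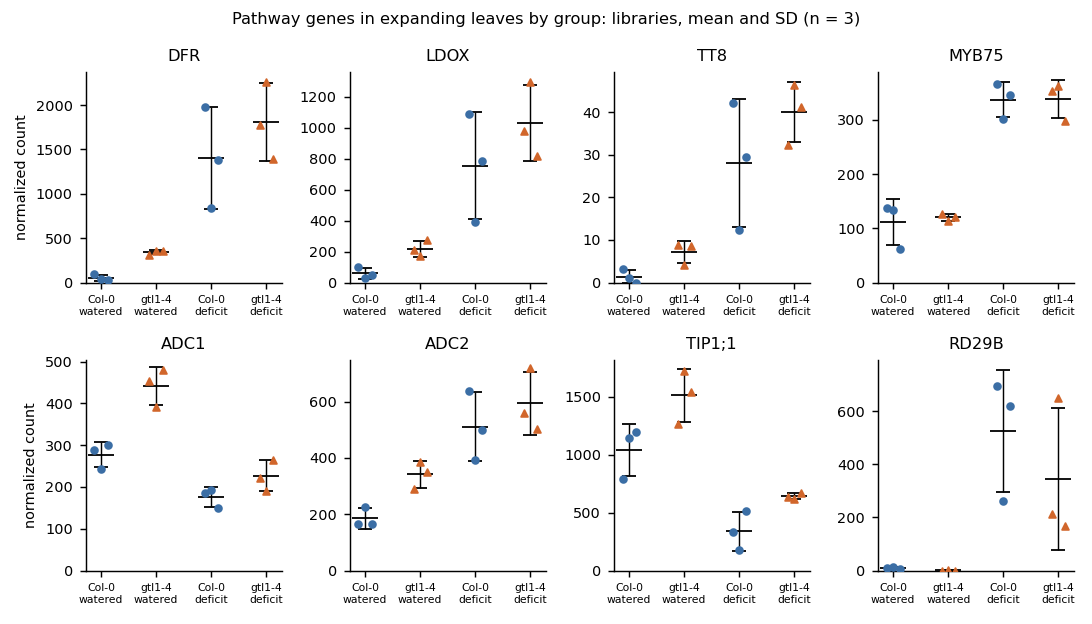
Normalized counts of 8 pathway genes in the 4 groups of expanding leaves, with circles for Col-0 and triangles for gtl1-4 libraries and bars for the mean and SD of 3. In watered leaves every gtl1-4 library is above every Col-0 library for DFR, LDOX, TT8, ADC1 and ADC2, and below for RD29B. Under deficit the genotypes overlap in every panel except TIP1;1.

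Drought and abscisic acid genes mostly had small negative values in the mutant, and none was called. Of 19 tested dehydration and LEA markers 3 were positive, with a median of -0.20, and -0.39 without Col-0 replicate 2. In the lower direction 2 had an unadjusted p under 0.05, against 3.01% of all genes. RD29B (AT5G52300), a classical abscisic acid marker, was at 693, 262 and 618 against 212, 650 and 167. Its log2 fold change was -0.76 with an interval of -1.84 to 0.32, and 1 library of each genotype was at the level of the other. In watered leaves RD29B was low, at 10.0, 13.1 and 6.10 in Col-0 and 0, 1.41 and 0 in gtl1-4. It was called there at -2.95 (adjusted p = 0.00895). The 18 abscisic acid genes had a median of -0.11, and -0.20 without Col-0 replicate 2. NCED3 (AT3G14440), the rate-limiting enzyme of abscisic acid synthesis under drought, was at 342, 296 and 268 against 244, 191 and 178, and OST1 (AT4G33950), the kinase that drives stomatal closure, at 111, 187 and 113 against 88.8, 62.6 and 88.4. For both genes the groups were apart, as for 14.1% of all tested genes. Their log2 fold changes were -0.57 and -0.75, but the adjusted p was 0.386 for each. Col-0 replicate 2 was the highest of the 6 libraries for OST1, which widened its difference, and for 7 of the 18 abscisic acid genes. HB7 (AT2G46680), a homeodomain factor raised by abscisic acid, was at 641, 552 and 592 against 362, 460 and 374, at -0.58 (adjusted p = 0.37), and it was called in watered leaves at -1.01 (adjusted p = 0.00865). The 5 stress NAC and HD-Zip factors tested had a median of -0.47, and -0.37 without Col-0 replicate 2. Galactinol and raffinose synthesis genes, 4 tested, had a median of -0.34, and -0.51 without that library. The 5 proline genes had a median of -0.01, and -0.09 without it.

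Genes of water transport and wall growth leaned the other way. Of 16 tested aquaporins 13 were positive, with a median of 0.35, and 0 were called. An unadjusted p under 0.05 in the higher direction was found for 8 of them, against 3.64% of all genes. Whether the list differs from all genes was not tested. Col-0 replicate 2 was the lowest library for 15 of the 16, and without it the median was 0.18. TIP1;1 (AT2G36830), an aquaporin of the vacuole membrane, was at 337, 175 and 511 against 635, 620 and 672, a log2 fold change of 1.04 ± 0.27 (adjusted p = 0.226). Here too Col-0 replicate 2 was the lowest library, which widened the difference. Wall loosening genes, 18 tested, had a median of 0.34, which was 0.50 without Col-0 replicate 2, with 0 called. In the higher direction 6 had an unadjusted p under 0.05, against 3.64% of all genes, and this list was not tested as a set either. EXPA10 (AT1G26770), an expansin of growing leaves, was at 59.4, 60.3 and 86.6 against 112, 172 and 126, a log2 fold change of 0.98 ± 0.22 (adjusted p = 0.104). The mutant libraries lay above all Col-0 libraries for TIP1;1 and EXPA10, while groups did not overlap in either direction for 14.1% of all tested genes.

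Jasmonate genes, 13 tested, had a median of 0.27 with 12 positive and 0 called, and 0.05 with 8 positive without Col-0 replicate 2, which was the lowest library for 12 of them. VSP2 (AT5G24770), a vegetative storage protein induced by jasmonate, was at 2753, 935 and 3265 against 5819, 5655 and 4928, a log2 fold change of 1.42 ± 0.33 (adjusted p = 0.141). Its low point was Col-0 replicate 2, which widened the difference. The 15 aliphatic glucosinolate genes had a median of 0.31 with 14 positive, and 0.04 with 9 positive without Col-0 replicate 2, which was the lowest library for all 15. This list had 0 called members, and the 2 called glucosinolate-related genes, ESM1 and FMO GS-OX4, are not in it. Without Col-0 replicate 2 the log2 fold changes of ESM1 and FMO GS-OX4 were 2.62 and -1.50. The 7 indole glucosinolate genes tested had a median of 0.22, and 0.19 without Col-0 replicate 2, with 0 called. Copper-zinc superoxide dismutase CSD2 (AT2G28190) was at 256, 88.6 and 303 against 454, 577 and 471, at 1.38 ± 0.33 (adjusted p = 0.15). Its low point was Col-0 replicate 2, which widened the difference. The 7 antioxidant genes had a median of 0.07, which was -0.08 without Col-0 replicate 2.

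Of the known targets of GTL1 named here, CCS52A1 alone was tested, and it was not called. CCS52A1 (AT4G22910) was at 46.2, 46.7 and 46.7 in Col-0 and 49.0, 49.8 and 56.3 in gtl1-4. The groups were apart, as for 14.1% of all tested genes, and the log2 fold change was 0.14 with an interval of -0.38 to 0.66. SDD1 was below the filter, with means of 4.96 and 5.02, so it was not tested. The 9 endocycle genes had a median of -0.01, and 0.14 without Col-0 replicate 2, with 0 called. The 6 stomatal lineage genes had a median of 0.23, and 0.07 without that library, with 0 called. Among the other trihelix factors, DF1 (AT1G76880), which acts with GTL1 to end root hair growth, was at 178, 235 and 196 in Col-0 and at 314, 354 and 386 in gtl1-4. The groups were apart, and the log2 fold change was 0.79 ± 0.19 with an adjusted p of 0.141, against 1.14 (adjusted p = 0.007) in watered leaves. The remaining 5 trihelix genes tested lay between -0.10 and 0.37. Nuclear photosynthesis genes, 21 tested, had a median of 0.03, and 0.01 without Col-0 replicate 2. Circadian clock genes, 12 tested, had a median of -0.05, and -0.09 without it. Cuticular wax genes, 11 tested, had a median of -0.15, and -0.24 without it. None of these lists had a called member. In the wax list CUT1 (AT1G68530), a fatty acid elongase, was at 1557, 1041 and 1613 against 931, 921 and 848, at -0.61 (adjusted p = 0.361).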

How the data were processed

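RNA was sequenced from pooled leaves in 8 groups of 3 libraries, and all 24 columns were matched to samples by name. The authors deposited normalized counts for 37336 gene identifiers in a table for each leaf age, whose unit is a normalized signal: estimated counts per gene, each library scaled by a single factor, as judged from the values. The submitters' processing notes name STAR, RSEM, Trim Galore, Trimmomatic, FastQC and bcl2fastq, and the build TAIR10. Versions and the normalization method are not given in the sources used here. In the 6 compared libraries 97.3 to 97.6% of values below 2000 reads were whole multiples of 1 step per library, within 0.002, which gave the depths. The rest were fractional, so recovered counts are estimates and no count model was used for the main tests.

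limma 3.58.1 (R 4.3.3), with a variance trend, was run on log2(value + 1). A leaf age's 12 libraries were fitted as 4 groups, keeping genes whose mean over them reached 10. P-values were adjusted by Benjamini-Hochberg over all genes tested, and called means under 0.05. Errors marked SE are those of the fitted difference, and ranges called interval are its 95% confidence interval. Fold changes on this scale understate the change of low genes. Each library is a pool of plants, so p-values reflect variation among pools. No 2 replicates agreed within sampling noise, so each counted as a sample. Intervals on recovered counts are exact binomial and cover counting error only. The procedure was run on simulated data in which no library stood apart from its group. Its error rate with a library such as Col-0 replicate 2 was not tested.

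The gene lists and their members were chosen with earlier results of these data known, while the 6 libraries were taken by their labels. Named genes are GTL1, the 12 largest rises and falls that were called, averaged 20 or more and did not overlap between genotypes, at most 4 called genes per list, and set genes of GTL1 targets, anthocyanin, polyamine and drought pathways. The rule named 31 genes. The other 9 called genes, and the uncalled list members given as examples, were named after their values were seen. Of the identifiers, 37051 matched TAIR10.1, the source of names, positions and promoters. Promoters run from 250 bases before to 50 after the annotated start. Promoter sequences beyond those printed are not reported here. Figures were drawn with matplotlib 3.10.9. Alternatives were pseudocounts, filters, scalings, variance and weight models, the groups fitted, a replicate block and leaving out each library. limma-voom on recovered counts and a comparison of the transcripts of neighbouring called genes were added after the data were seen.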

Additional observations from a re-analysis of the deposited data

Results flagged for a closer look

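CRK40, a cysteine-rich receptor-like kinase gene, lay above Col-0 in all 3 gtl1-4 libraries of water-deficit expanding leaves and below it in all 3 of water-deficit emerging leaves, and this opposite placement of the groups flagged it. In emerging leaves it was at 65.1, 67.5 and 77.4 normalized counts in Col-0 and at 22.1, 16.6 and 55.4 in gtl1-4, a log2 fold change of -1.32 that was not called (limma, adjusted p = 0.336). In expanding leaves its log2 fold change was 0.99 (adjusted p = 0.00389). The tables of the 2 leaf ages were scaled separately, and the difference between the ages was not tested.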

How the results depend on the processing

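The count of 28 genes under water deficit in expanding leaves was 19 to 32 with other pseudocounts, filters, scalings, variance models or groups fitted. With array weights it was 112, with 70 higher and 42 lower, so that 62.5% of calls were higher against 75%, and all 28 genes were among them. Leaving out 1 library gave 15 to 54 calls, 11 to 46 higher and 4 to 8 lower. Of the 27 called genes other than GTL1, 13 kept their call in every fit in which they were tested, and 8 lost it without Col-0 replicate 2. GTL1 kept its call throughout. List members called were 8 higher and 2 lower with array weights, and 1 to 8 higher over the fits without 1 library. The well-watered count of 222 was 123 without a variance trend, 81 with only its groups fitted, and 79 to 214 without 1 library. The interaction called 0 to 2 genes without 1 library and 0 in all other fits. The emerging count of 34 ranged from 24 to 36. Of the 32 list medians, 12 turned sign in at least 1 fit, all between -0.11 and 0.18 as reported. Of the named genes, SPDS1 and MYB75 turned sign: SPDS1 ranged from -0.0176 to 0.132 over the fits without 1 library and was negative without gtl1-4 replicate 1 and without Col-0 replicate 1 (-0.00834). MYB75 was at -0.0108 with array weights and ranged from -0.0760 to 0.0905 without 1 library, negative without gtl1-4 replicate 1 (-0.0328) or 2 (-0.0486) and without Col-0 replicate 2. The cause of these changes was not tested. Replicate numbers were not treated as pairs in the main fit. Deviations of same-numbered water-deficit libraries correlated at 0.02, -0.16 and -0.16. Over all same-numbered pairs of the 12 expanding-leaf libraries the correlations ran from -0.16 to 0.13, the highest between watered and water-deficit gtl1-4. With the replicate block 25 genes were called, 22 of them among the 28, and the well-watered count was 170. With 3 libraries a group and 4.74 to 7.81 M nuclear counts, changes in genes near the filter were the least certain.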
